A study of Mus musculus with 12 samples.

Results

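The genes described here handle iron and heme inside the neutrophil. They were picked by symbol and read from the deposited table of gene counts by Ensembl identifier, and they make up 9 of its 48709 gene rows. Fth1 and Ftl1 encode the heavy and light chains of ferritin, and Ncoa4 encodes the receptor that carries ferritin to the lysosome. Tfrc, Slc40a1 and Slc11a1 encode the transferrin receptor, the iron exporter ferroportin and the phagosomal metal transporter NRAMP1. Hmox1 encodes heme oxygenase 1, and Ireb2 encodes iron regulatory protein 2. The last row, Gm10252, is an unclassified transcript model on the strand opposite Ftl1. It was included because it holds the most counts of any row in the table, 966036 over the 12 libraries, so its high level is the reason for its choice and not a result. The other members were also listed with results from these libraries known, and the counts of members below describe this list and do not test iron genes as a class.

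The study asked how the neutrophils that enter the mouse liver early and late after acute injury differ. Male C57BL/6N mice aged 8 to 10 weeks received an intraperitoneal dose of carbon tetrachloride (CCl4), a hepatotoxin, at 1 mL/kg in corn oil, and liver neutrophils were collected 24 hours (n = 4 libraries) or 72 hours (n = 5) later. Control neutrophils came from the spleens of untreated mice (n = 3), because the uninjured liver held too few. All cells were sorted by flow cytometry as Ly6G-hi Ly6C-int CD11b+ CD45+ to a purity above 95% before bulk RNA sequencing. Organ, CCl4, corn oil and the way each tissue was dissociated therefore change together in any comparison with the control, and their effects cannot be told apart. In bulk RNA, fewer cells of a type and less RNA per cell cannot be told apart either. The labels number the libraries of each group but do not say which animals they came from, so the p-values measure the spread between these libraries.

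Ferritin is a hollow protein shell in which cells keep iron in a safe form, and NCOA4 delivers it to lysosomes when the iron is needed again. Iron enters most cells with transferrin through its receptor and leaves through ferroportin, while heme oxygenase releases iron from heme. The iron regulatory proteins bind a short RNA hairpin, the iron-responsive element: near the start of ferritin and ferroportin mRNAs the bound protein blocks translation, and near the end of transferrin receptor mRNA it protects the message from decay. Neutrophils also store iron-binding proteins, lactoferrin and lipocalin 2, in their granules and use them to withhold iron from microbes.

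The libraries held 1267089 to 3017403 counts on genes, which was 2.71% to 3.18% of the reads counted on a gene, on no gene or on several. The kit preserves strand, and the strand setting used for counting is not given in the sources used here, so for no row is it known that the counts come from the gene's own strand. That limit holds for every gene below, the ferritin, transport and marker rows included, and a low or 0 count need not mean little mRNA. Where genes overlap on opposite strands, the reads cannot be assigned with certainty to either. Spleen replicate 3 stood apart: S100a8, an abundant granulocyte calcium-binding protein, had 249 counts there against 2820 and 3784 in spleen replicates 1 and 2. In 72-hour replicates 2 and 3, 1.91% and 1.98% of the reads were unaligned, against 49.6% to 50.7% in the other 10 libraries. All 10 listed neutrophil markers were measured, with summed levels of 1933 to 7385 normalized CPM (counts divided by the TMM-scaled library size) in the spleen, 1221 to 2879 at 24 hours and 2147 to 2945 at 72 hours. By the edgeR test below, 2 of the 10 were called against the control at 24 hours, S100a8 and S100a9, both lower. At 72 hours 4 were called, S100a8, S100a9, Ly6g and Mmp8, all lower. Of all tested genes 4.4% and 2.71% were called lower. The group ranges of each of these markers overlapped. Ly6g, whose product was used for sorting, had 29 to 104 counts in the spleen, 3 to 42 at 24 hours and 3 to 18 at 72 hours.

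All 9 members had more than 1 CPM in at least 3 libraries and entered the fit. Between 24-hour and control neutrophils, 3 of the 9 (33.3%) passed adjusted p below 0.05 with a log2 fold change of at least 0.5, against 9.75% of the 12488 genes tested. Fth1 and Gm10252 were higher at 24 hours, where 5.35% of all genes were called higher, and Ncoa4 was lower, where 4.4% were called lower. Between 72-hour and control neutrophils, 4 of 9 (44.4%) were called, against 5.33% of all genes: Fth1, Ftl1, Gm10252 and Slc11a1 were all higher, where 2.63% of all genes were called higher. Between 72-hour and 24-hour neutrophils edgeR called 0 of 9 members, against 4.49% of all genes (1.65% higher and 2.84% lower); 1 member had an unadjusted p under 0.05, and DESeq2 and limma-voom called 0. The first pair of comparisons shares its 3 spleen libraries and is not independent. Ftl1 and Gm10252 share 355 exon bases of the same locus, so their 72-hour calls are not independent either. Both rows count as members in the shares and medians given here. The median log2 fold change of the members was 0.71, 1.20 and 0.30 in these comparisons, beside −0.23, −0.02 and 0.18 over all genes tested. Without spleen replicate 3 the members called numbered 3, 2 and 1 in the same order, and without 72-hour replicates 2 and 3 they numbered 3, 1 and 0.

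**Figure D1:**
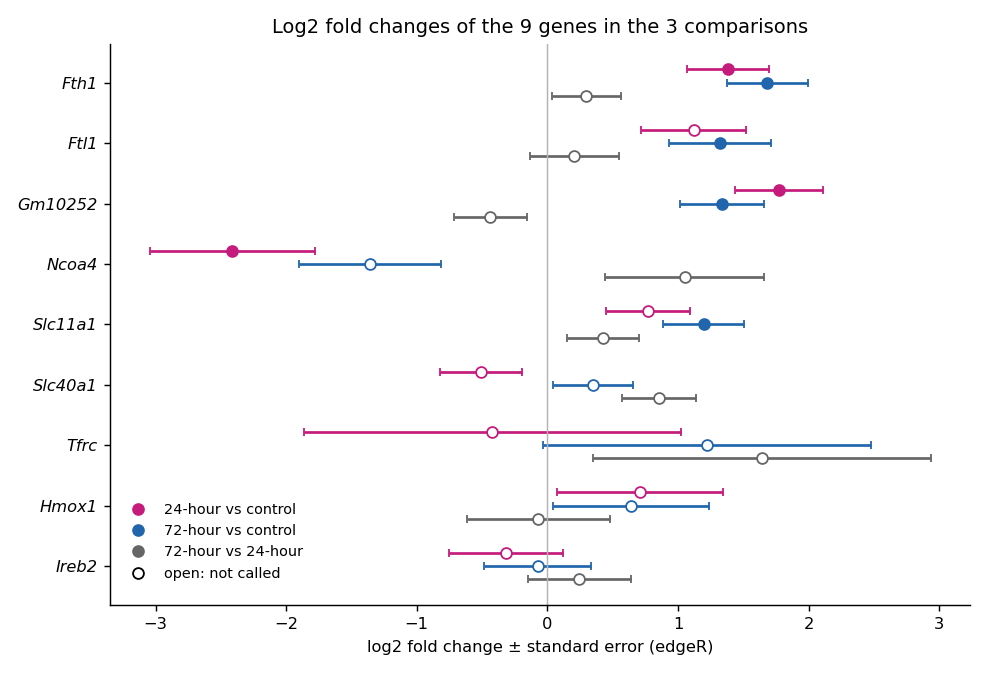
Log2 fold change (edgeR, x axis) with its standard error for each of the 9 genes (y axis) in the 3 comparisons; filled points were called and open points were not. The ferritin rows Fth1, Ftl1 and Gm10252 and Slc11a1 lie to the right of 0 against the control at both times, Ncoa4 lies to the left (−2.41 at 24 hours), and no 72-hour against 24-hour point is filled.

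Counts on the ferritin heavy chain gene were higher in both liver groups than in the control. Fth1 has no annotated exon on its other strand, but its row held only 270 to 1939 counts a library, and whether these read Fth1 mRNA or the opposite strand is not known. The gene (GRCm38 chromosome 19, 9980598 to 9985098, plus strand) stood at 133, 139 and 86.8 normalized CPM in spleen replicates 1 to 3. Its level was 303, 431, 292 and 220.3 CPM in 24-hour replicates 1 to 4 and 416, 413, 600.1, 213 and 273 CPM in 72-hour replicates 1 to 5. Every liver library lay above every spleen library, and the 2 liver groups overlapped. The fitted level was 2.61-fold that of the control at 24 hours (log2 fold change 1.39, SE 0.31, adjusted p = 0.0067) and 3.21-fold at 72 hours (1.68, SE 0.31, adjusted p = 0.00135). The liver times differed by 0.30 on the log2 scale (SE 0.27, adjusted p = 0.553), which was not called. Both calls against the control held under every alternative tried.

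The light chain gene Ftl1 and the row on its other strand have to be read together. Ftl1 lies on the minus strand of chromosome 7 (45457944 to 45459884), and Gm10252 is a model of 1 exon and 832 bases on the plus strand (45459469 to 45460300). It begins inside the first Ftl1 intron, covers 355 bases of the first of the 4 Ftl1 exons, of which 253 are 5′ UTR and 102 are coding, and runs on for 416 bases beyond the Ftl1 start. The stretch below is shown because it carries the Ftl1 start codon (capitals) and belongs to both rows. Both lines are the same bases of chr7:45459587-45459631 in GRCm38, each written 5′ to 3′ on its own strand.
Ftl1, minus strand: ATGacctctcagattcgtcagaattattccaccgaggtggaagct
Gm10252, plus strand: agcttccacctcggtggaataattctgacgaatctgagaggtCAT

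**Figure D2:**
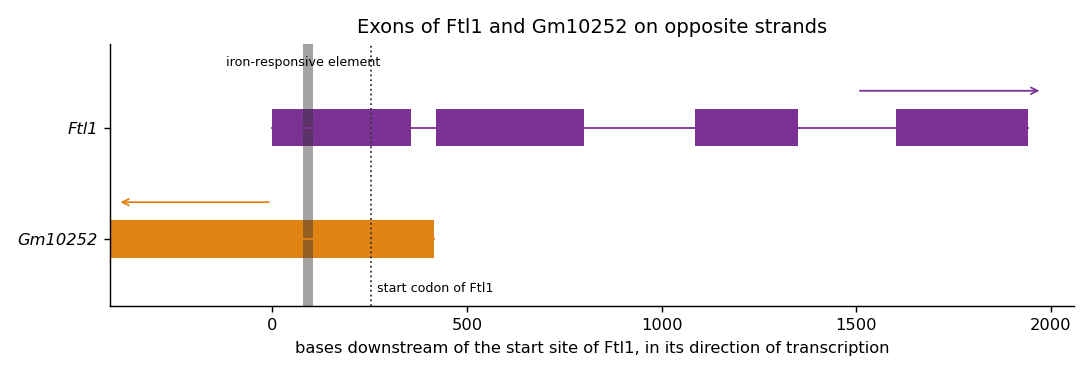
Exons (boxes) and introns (lines) of Ftl1 and Gm10252 along the distance in bases from the Ftl1 start site (x axis), with arrows for the direction of transcription. The single exon of Gm10252 covers the first Ftl1 exon, with the iron-responsive element (grey bar) and the start codon (dotted line), and lies on the other strand.

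Ftl1 rose from the control to the 72-hour neutrophils, with 2 of the liver libraries left at the control level. Its level was 118, 104 and 70.4 CPM in the spleen and 146, 192, 274 and 237 CPM at 24 hours. At 72 hours replicates 1 to 3 stood at 329.6, 309.5 and 383 CPM and replicates 4 and 5 at 87.5 and 109 CPM. The 24-hour libraries all exceeded the spleen libraries, while the 72-hour group overlapped them through replicates 4 and 5. For Ftl1 the log2 fold change was 1.12 at 24 hours (SE 0.40, adjusted p = 0.0782, not called) and 1.32 at 72 hours (SE 0.39, adjusted p = 0.0482). The 72-hour call was lost on leaving out any of 10 of the 12 libraries (adjusted p 0.0548 to 0.153) and on leaving out 72-hour replicates 2 and 3 together (log2 fold change 0.85, adjusted p = 0.366). It was also lost with DESeq2 size factors (adjusted p = 0.0501), filterByExpr (0.0702), limma-voom (0.0925) and a fit of only the 2 groups (0.115). The 24-hour difference was called on leaving out 72-hour replicate 4 (adjusted p = 0.0338) or 5 (0.0491), with no filter (0.00187) and in a fit of only the 2 groups (0.0153).

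Gm10252 moved like Ftl1 on a scale more than 100 times higher. Spleen replicates 1 to 3 had 17800, 18960 and 12080 CPM, and 24-hour replicates 1 to 4 had 45000, 38960, 74480 and 64080 CPM. The 72-hour replicates had 45080, 59180, 58930, 18340 and 24060 CPM, and as for Ftl1 the last pair was low. All 24-hour libraries lay above the spleen, and 72-hour replicate 4 fell within the range of the spleen. The fitted level was 3.42-fold the control at 24 hours (log2 fold change 1.77, SE 0.34, adjusted p = 0.00176) and 2.53-fold at 72 hours (1.34, SE 0.32, adjusted p = 0.0137). The 24-hour call held under every alternative tried. At 72 hours leaving out spleen replicate 1 (adjusted p = 0.0546), spleen replicate 3 (0.053) or 72-hour replicates 2 and 3 together (0.16) ended the call.

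This row took 1.41% to 2.27% of all gene counts in the spleen libraries, 3.35% to 5.91% at 24 hours and 2.08% to 6.31% at 72 hours. It ranked first among all rows in 6 of the 12 libraries and no lower than 8 in the others. For each count on Ftl1 there were 137 to 309 counts on Gm10252. Per kilobase of exon, the mean level of Gm10252 was 19570, 66860 and 49420 normalized CPM in the control, 24-hour and 72-hour groups, while Ftl1 had 72.9, 158 and 182 and Fth1 had 34.4, 89.8 and 110. Exon length here joins all annotated exons of a gene. The 5 annotated pseudogene and retrogene copies of ferritin together held 1 to 8 counts a library, 41 in all. Reads that match both a ferritin gene and a copy can be lost from either row, and the ferritin levels are uncertain to that extent.

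**Figure D3:**
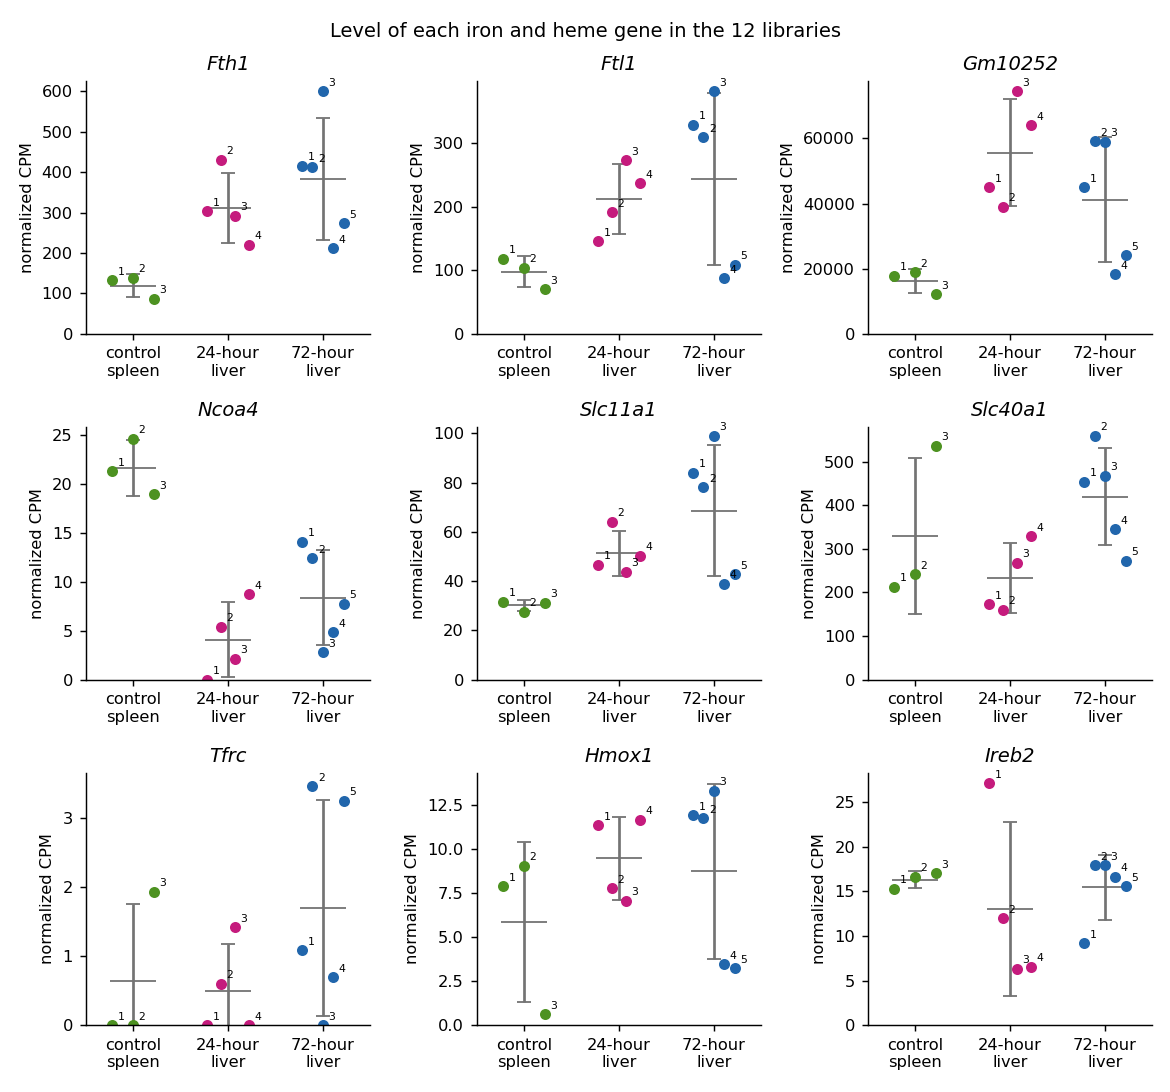
Normalized CPM (y axis, from 0 in each panel) of each gene in the 3 spleen, 4 24-hour and 5 72-hour libraries; points are numbered by replicate, and bars show the mean and SD. Fth1 and Slc11a1 lie above the spleen in every liver library, Ncoa4 lies below it in every liver library, and 72-hour replicates 4 and 5 are the lowest of their group for Fth1, Ftl1, Gm10252, Slc11a1, Slc40a1 and Hmox1.

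Ratios within a library need no scaling factor and were compared by exact 2-sided permutation tests with Benjamini-Hochberg adjustment over 6 tests. The log2 ratio of Gm10252 to Ftl1 counts was 7.38 ± 0.14 (SD, n = 3) in the control, 8.02 ± 0.26 (n = 4) at 24 hours and 7.48 ± 0.29 (n = 5) at 72 hours. The 24-hour libraries, 7.66 to 8.27, lay above the control libraries, 7.23 to 7.50, and the difference of 0.64 had an exact p = 0.0571 (adjusted p = 0.161) where the smallest p the design allows is 0.0286. The 72-hour group was 0.54 below the 24-hour group (exact p = 0.0397, adjusted p = 0.161), and 0.10 above the control (exact p = 0.589). None of these differences passed the adjusted threshold. Against the control the smallest possible p is 0.0286 at 24 hours and 0.0179 at 72 hours. After adjustment over 6 tests, neither could pass unless other tests also gave small p-values.

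The Fth1 row was also set against the rows of the Ftl1 locus together, as Fth1 over Ftl1 plus Gm10252. Gm10252, on the strand opposite Ftl1, gives nearly all of that sum (137 to 309 counts for each Ftl1 count). Fth1 has no annotated row on its other strand. The ratio therefore cannot be read as heavy to light chain mRNA. The log2 ratio was −7.10 ± 0.03 (SD, n = 3) in the control, −7.48 ± 0.77 (n = 4) at 24 hours and −6.69 ± 0.30 (n = 5) at 72 hours. In the 24-hour group the libraries split: replicate 2 was at −6.51, replicate 1 at −7.22, and replicates 3 and 4 at −8.00 and −8.19. The 24-hour group differed from the control by −0.38 (exact permutation p = 0.343, adjusted p = 0.412) and the 72-hour group by 0.41 (exact permutation p = 0.107, adjusted p = 0.161), and the times by 0.78 (exact permutation p = 0.0873, adjusted p = 0.161). The 3 control libraries lay close together, and no difference between groups passed the test. As for the first ratio, the comparisons with the control could hardly pass in groups of this size.

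**Figure D4:**
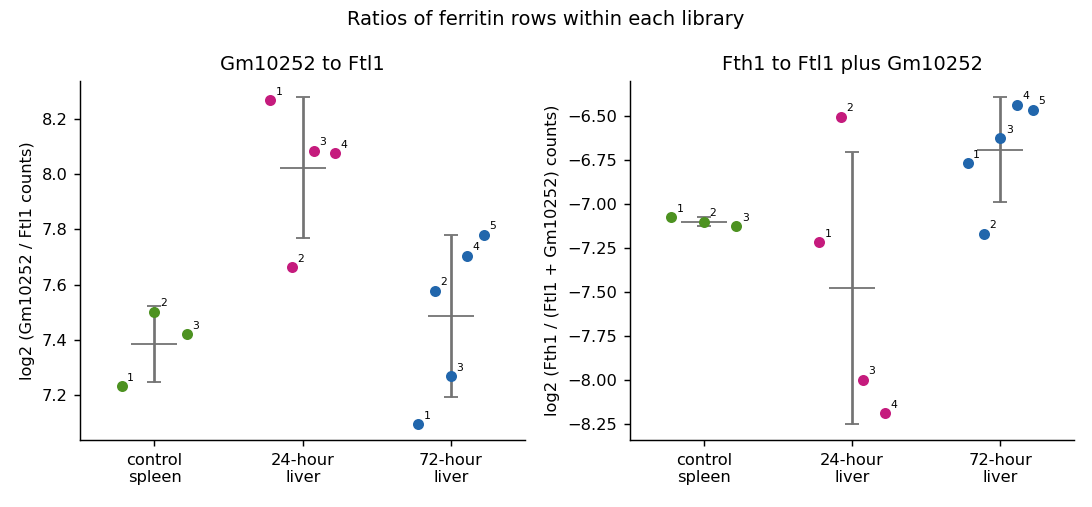
Log2 ratio of Gm10252 to Ftl1 counts (left) and of Fth1 to Ftl1 plus Gm10252 counts (right) in each library (y axes, not starting at 0), by group; bars show mean and SD. The left ratio lies between 7.66 and 8.27 at 24 hours, above the 3 control libraries, and the right ratio spans −8.19 to −6.51 at 24 hours.

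Ncoa4, the ferritin cargo receptor, went the other way from ferritin. Spleen replicates 1 to 3 had 46, 68 and 59 counts, or 21.3, 24.6 and 19.0 CPM. The 24-hour libraries had 0, 9, 3 and 12 counts (0, 5.40, 2.12 and 8.75 CPM), and the 72-hour libraries had 26, 36, 9, 7 and 12 counts (14.1, 12.4, 2.79, 4.86 and 7.79 CPM). Every liver library was below every spleen library. Ncoa4 fell at 24 hours, with a log2 fold change of −2.41 (SE 0.63, adjusted p = 0.0174), a fitted level 5.32-fold lower than the control. At 72 hours it was −1.36 (SE 0.54, adjusted p = 0.178), which was called with no filter only (0.042), and the liver times differed by 1.05 (SE 0.61, adjusted p = 0.332). Leaving out spleen replicate 1 (adjusted p = 0.0522), spleen replicate 2 (0.0658) or 24-hour replicate 3 (0.0527) ended the 24-hour call. With 287 counts in all 12 libraries (chromosome 14, 32159865 to 32179855, plus strand), Ncoa4 is measured far less precisely than Fth1.

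Slc11a1, the transporter that moves divalent metals out of the phagosome of myeloid cells, was called higher at 72 hours. On chromosome 1 (74375195 to 74386062, plus strand), it read 31.5, 27.6 and 31.2 CPM in the spleen, 46.7, 64.2, 43.8 and 50.3 CPM at 24 hours and 84.0, 78.1, 99.0, 38.9 and 42.8 CPM at 72 hours. No liver library fell to the level of the spleen, whose 3 libraries differed little. Against the control the change was 0.77 on the log2 scale at 24 hours (SE 0.32, adjusted p = 0.13) and 1.20 at 72 hours (SE 0.31, adjusted p = 0.0225), and the times differed by 0.43 (SE 0.28, adjusted p = 0.393). At 72 hours the call ended without spleen replicate 1 (adjusted p = 0.0875) or 2 (0.137), without 72-hour replicate 1 (0.0585), 2 (0.0582) or 3 (0.0729), without 72-hour replicates 2 and 3 together (0.222), and in a fit of only the 2 groups (0.0529).

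Slc40a1, the ferroportin gene (chromosome 1, 45908068 to 45926523, minus strand), was called in no comparison. Spleen replicates 1 and 2 had 213 and 242 CPM, and replicate 3, the library that stood apart, had 536 CPM. The liver libraries had 173, 161, 268 and 329.7 CPM at 24 hours and 454, 559.6, 468, 345 and 273 CPM at 72 hours. The 24-hour libraries overlapped both the spleen and the 72-hour libraries. Against the control the log2 fold change was −0.51 at 24 hours (SE 0.32, adjusted p = 0.319) and 0.35 at 72 hours (SE 0.31, adjusted p = 0.655), and the 72-hour group was 0.85 above the 24-hour group (SE 0.29, adjusted p = 0.0863). Without spleen replicate 3 these values were 0.03 (adjusted p = 0.961), 0.88 (0.0873) and 0.85 (0.0321), so the direction at 24 hours rested on that library. Ferroportin is abundant in the macrophages of the splenic red pulp and in Kupffer cells. Of 12 markers of those cells, Spic, Clec4f and C1qa had 0 counts in every library and 2 passed the filter, and the summed level was 82.7 to 122 CPM in the spleen, 126 to 179 at 24 hours and 117 to 179.5 at 72 hours. Spleen replicate 3 had the highest sum of the spleen libraries. Most of the sum was Csf1r, which shares 873 exon bases with a gene on the opposite strand.

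Tfrc, the receptor through which dividing cells take up transferrin, was barely detected. Its row (chromosome 16, 32608920 to 32632794, plus strand) held 27 counts in all: 0, 0 and 6 in the spleen, 0, 1, 2 and 0 at 24 hours and 2, 10, 0, 1 and 5 at 72 hours. The 24-hour group together had no more than the 3 counts used here as the floor of detection, and no fold is given. Counts this low could not have shown a difference between the groups.

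The hairpins that the iron regulatory proteins read are shown because they tie ferritin, ferroportin and transferrin receptor to the same control, and because the Ftl1 hairpin lies inside the exon of Gm10252. They were found in GENCODE M21 transcripts of GRCm38 on the transcript strand only, as an unpaired C followed by 5 bases, the 6-base loop CAGTGN and 5 bases that pair with the first 5, G with T allowed. Such a match lay in a UTR of 160 of 21877 coding genes (0.731%). It was present in 4 of the 8 coding members and, of the 63 genes in the wider iron and heme list below, in a UTR of Alas2 alone. Each site is 27 bases, written 5′ to 3′, with the loop in capitals.
Fth1, 5′ UTR, chr19:9982733-9982759, plus strand: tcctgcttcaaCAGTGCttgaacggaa
Ftl1, 5′ UTR, chr7:45459780-45459806, minus strand: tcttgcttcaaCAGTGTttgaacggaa
Slc40a1, 5′ UTR, chr1:45925466-45925492, minus strand: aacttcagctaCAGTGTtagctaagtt
Tfrc, 3′ UTR, chr16:32631220-32631246, plus strand: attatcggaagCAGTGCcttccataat
Tfrc, 3′ UTR, chr16:32631711-32631737, plus strand: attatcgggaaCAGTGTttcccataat
The Tfrc 3′ UTR held 4 matches, of which the first and last are printed. Of the members with a hairpin in the 5′ UTR, Fth1 was called higher at both liver times, Ftl1 at 72 hours and Slc40a1 in no comparison. RNA counts do not measure the translation that these hairpins control.

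Hmox1, which opens the heme ring and frees its iron, did not pass in any comparison. The gene is on chromosome 8 (75093621 to 75100589, plus strand). Its counts were 17, 25 and 2 in the spleen, 18, 13, 10 and 16 at 24 hours and 22, 34, 43, 5 and 5 at 72 hours, which gave mean levels of 5.86 ± 4.56 (SD, n = 3), 9.47 ± 2.38 (n = 4) and 8.74 ± 4.95 (n = 5) CPM. Low libraries stood on both sides: spleen replicate 3 at 0.643 CPM and 72-hour replicates 4 and 5 at 3.47 and 3.24 CPM. Hmox1 gave log2 fold changes of 0.71 at 24 hours (SE 0.63, adjusted p = 0.51) and 0.64 at 72 hours (SE 0.60, adjusted p = 0.679). Without spleen replicate 3 these fell to 0.16 (adjusted p = 0.899) and 0.09 (0.96).

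Ireb2, the iron regulatory protein that is degraded when iron is plentiful, was called in no comparison. Its row (chromosome 9, 54863789 to 54912530, plus strand) gave 15.3, 16.7 and 17.04 CPM in the spleen, 27.1, 12, 6.36 and 6.57 CPM at 24 hours and 9.22, 17.96, 17.95, 16.7 and 15.6 CPM at 72 hours. The 24-hour libraries spread on both sides of the narrow control range. Ireb2 gave log2 fold changes of −0.32 at 24 hours (SE 0.44, adjusted p = 0.698) and −0.07 at 72 hours (SE 0.41, adjusted p = 0.966). The row held 9 to 58 counts a library, and the sign at 72 hours turned without 72-hour replicate 1 (0.063).

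Per kilobase of exon, the order of the coding members by mean level in the control was Ftl1 at 72.9 normalized CPM, Slc40a1 at 36.7, Fth1 at 34.4, Slc11a1 at 8.12, Hmox1 at 3.35, Ncoa4 at 2.31, Ireb2 at 1.72 and Tfrc at 0.104. The libraries of Slc40a1 overlapped those of both Ftl1 and Fth1, and those of Hmox1 and Ncoa4 overlapped, while the other neighbours did not. At 24 hours the order was Ftl1 at 158, Fth1 at 89.8, Slc40a1 at 25.9, Slc11a1 at 13.8, Hmox1 at 5.41, Ireb2 at 1.37, Ncoa4 at 0.434 and Tfrc at 0.0814, and Ftl1 overlapped Fth1, Ireb2 overlapped Ncoa4 and Ncoa4 overlapped Tfrc. Fth1 thus stood clear of Slc40a1 at 24 hours, where in the control the ranges overlapped. At 72 hours the order was Ftl1 at 182, Fth1 at 110, Slc40a1 at 46.7, Slc11a1 at 18.5, Hmox1 at 4.99, Ireb2 at 1.63, Ncoa4 at 0.896 and Tfrc at 0.274, with overlaps between all neighbours except Slc40a1 with Slc11a1 and Slc11a1 with Hmox1. The order of neighbouring genes was not tested, and it depends on the length used. That length joins all annotated exons of a gene, 3469 bases for Fth1 and 1340 for Ftl1. Without this division Fth1 had the higher mean: 119 against 97.7 CPM in the control, 312 against 212 at 24 hours and 383 against 244 at 72 hours. The undivided 24-hour ranges of Fth1 (220.3 to 430.7 CPM) and Slc40a1 (160.8 to 329.7 CPM) overlapped.

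Across the 12 libraries the member most like Ftl1 was Gm10252 (Pearson r of log2 CPM 0.909), and Fth1 followed Slc11a1 (0.912) more closely than Ftl1 (0.819) or Gm10252 (0.781). Ncoa4 ran against Fth1 (−0.508) and Gm10252 (−0.515). These 12 points share the group differences, the library depths and the scaling, so the values are descriptions. Over all genes tested, the profiles most like Fth1 were those of the chemokine gene Cxcl3 (0.955), the lactate exporter gene Slc16a3 (0.951) and the NF-κB inhibitor gene Nfkbia (0.948). For Ftl1 they were the chemokine gene Cxcl10 (0.968), Ccdc88b (0.953) and A630001O12Rik (0.947), and for Gm10252 they were 0610040F04Rik (0.983), Mast1 (0.962) and Gm20528 (0.959). Slc11a1 was nearest to the transglutaminase gene Tgm2 (0.939), the ascorbate transporter gene Slc23a2 (0.922) and Slc15a3 (0.919), and Slc40a1 to Ivns1abp (0.929), Gm10138 (0.915) and the thrombomodulin gene Thbd (0.909). Ncoa4 was nearest to B3galt6 (0.901), Gnb4 (0.897) and Vps37b (0.861), Hmox1 to Lasp1 (0.915), the interferon receptor gene Ifnar2 (0.904) and 1700040L08Rik (0.893), and Ireb2 to the ubiquitin ligase gene Herc2 (0.91), Sec23b (0.895) and Atraid (0.891). For Tfrc, whose counts are few, they were Nr2c2 (0.814), Iqcc (0.812) and Zmynd11 (0.798). Total counts over the 12 libraries were also few for Cxcl3 (74), Cxcl10 (91), B3galt6 (66), Sec23b (45) and Atraid (43). Several of the named genes overlap exons on the opposite strand, among them Mast1 (1616 bases) and Gm20528 (4214 bases).

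The wider iron and heme pathway was read from a list of 64 other genes, of which 63 were in the table and 35 passed the filter. In 24-hour against control neutrophils 3 of the 35 (8.57%) were called, beside 9.75% of all genes, with Fbxl5 higher and Ltf and Lcn2 lower and a median log2 fold change of −0.20. In 72-hour against control neutrophils 3 (8.57%) were called, beside 5.33%, with Lrp1 higher and Ltf and Lcn2 lower and a median of −0.05. Between 72 and 24 hours 2 (5.71%) were called, beside 4.49%, and both Fbxl5 and Cd163 were lower at 72 hours (median 0.23). These shares are near those of all genes.

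**Figure D5:**
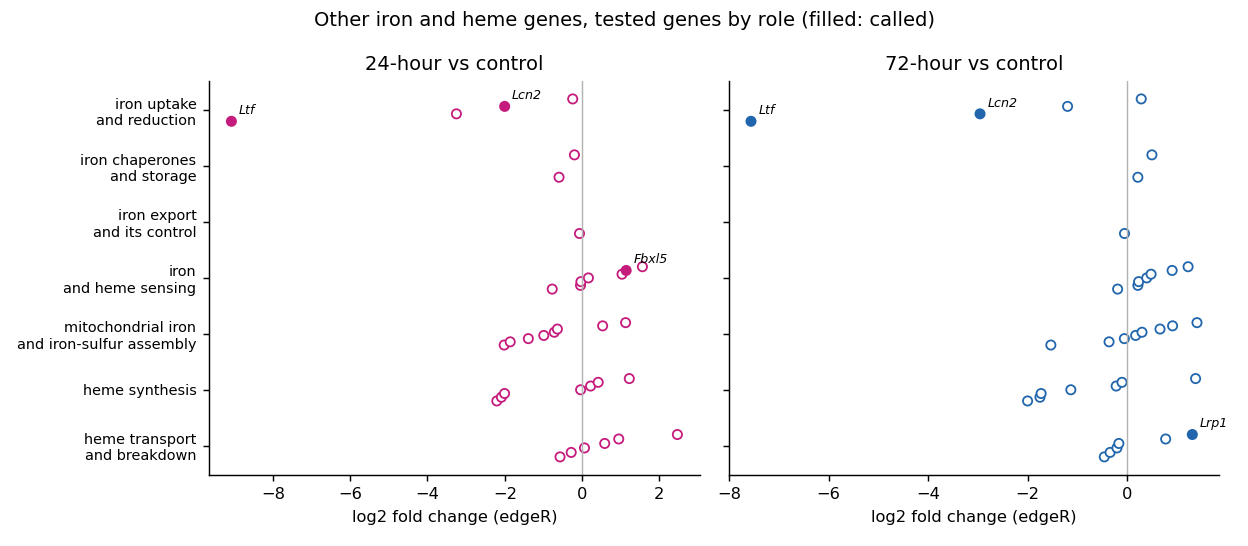
Log2 fold change (edgeR, x axis) of the 35 tested genes of the wider iron and heme list against the control, at 24 hours (left) and 72 hours (right), grouped by role (y axis); filled and named points were called. Ltf (−9.07 and −7.56) and Lcn2 (−2.0 and −2.96) lie far to the left, and no gene of heme synthesis or iron-sulfur assembly is filled.

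Ltf and Lcn2, the granule proteins that bind iron and iron-carrying siderophores, fell most. Ltf, which encodes lactoferrin, had 3690, 4517 and 647 counts in the spleen, 8, 2, 1 and 2 at 24 hours and 5, 7, 14, 20 and 16 at 72 hours. Its log2 fold change was −9.07 at 24 hours (SE 0.73, adjusted p = 5.9e-08) and −7.56 at 72 hours (SE 0.59, adjusted p = 6.36e-08). Lcn2, which encodes lipocalin 2, had a mean level of 253 ± 180 CPM (SD, n = 3) in the control, 62.8 ± 45.8 (n = 4) at 24 hours and 32.4 ± 13.5 (n = 5) at 72 hours. Its log2 fold change was −2.0 at 24 hours (SE 0.54, adjusted p = 0.0205), where the groups overlapped through spleen replicate 3 at 49.2 CPM, and −2.96 at 72 hours (SE 0.52, adjusted p = 8.44e-04). Lcn2 was no longer called at 24 hours without spleen replicate 1 (adjusted p = 0.133), spleen replicate 2 (0.0866), 24-hour replicate 3 (0.066) or 24-hour replicate 4 (0.071), and under the DESeq2 (0.0575) and limma-voom (0.0749) tests. Of 8 genes of immature neutrophils, 5 were tested, and 3 of them fell at both times. Of all tested genes 4.4% were called lower at 24 hours and 2.71% at 72 hours. Camp, a granule gene, had 366, 484 and 25 counts in spleen replicates 1 to 3. It had 0 in each 24-hour library and 0, 0, 0, 3 and 3 at 72 hours (adjusted p = 5.99e-05 and 2.26e-05). Top2a, a topoisomerase gene of dividing cells, had 21, 14 and 6 in the spleen. At 24 hours it had 1, 0, 0 and 0, and at 72 hours 0, 0, 4, 0 and 0 (adjusted p = 0.0226 and 0.0249). For neither is a 24-hour fold given, as those groups did not exceed the floor of 3 counts. The 72-hour log2 fold changes, −7.52 for Camp and −3.84 for Top2a, rest on counts near that floor. The granule gene Ngp also fell (log2 fold change −5.56 and −7.12, adjusted p = 2.34e-05 and 8.28e-07). The proliferation gene Mki67 (−0.12 and 0.07) and the protease gene Prtn3 (1.77 and 0.17) were not called, and Elane had 0 counts in every library. The summed level was 2360 to 2775 CPM in the spleen, 870 to 1278 at 24 hours and 963 to 1510 at 72 hours, and Mki67 gave most of it in the liver libraries. The part of maturation in these values was not tested.

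Among the 7 genes of iron and heme sensing, all tested, Fbxl5 was called at 24 hours and none at 72 hours. FBXL5 is the ubiquitin ligase adaptor that marks iron regulatory proteins for degradation when iron is present. Its level was 868, 928 and 496 CPM in the spleen, 2228, 1953, 1280.0 and 1275 CPM at 24 hours and 762, 839, 692, 966 and 1191 CPM at 72 hours. The 24-hour libraries lay above all others. Fbxl5 had a log2 fold change of 1.14 at 24 hours (SE 0.27, adjusted p = 0.00793) and 0.22 at 72 hours (SE 0.25, adjusted p = 0.753), and the 72-hour level was lower than the 24-hour level by a log2 difference of −0.92 (SE 0.23, adjusted p = 0.0228). That last call was lost without 24-hour replicate 1 (adjusted p = 0.101) or 2 (0.0789), without 72-hour replicate 1 (0.0603) or 3 (0.0633), and without 72-hour replicates 2 and 3 together (0.124). Fbxl5, a row of 1390 to 3532 counts, shares 98 exon bases with Bst1 on the opposite strand, a row of 34 to 167 counts. Whether the Fbxl5 row reads Fbxl5 mRNA or the opposite strand is not known.

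Of the 12 genes of heme transport and breakdown, 6 were tested. Lrp1, the endocytic receptor that takes up heme bound to hemopexin, had 13.0, 18.5 and 18.6 CPM in the spleen, 16.4, 18, 55.9 and 40.1 CPM at 24 hours and 27.6, 32.1, 47.0, 43.8 and 59.0 CPM at 72 hours. All 72-hour libraries lay above the spleen (log2 fold change 1.31, SE 0.39, adjusted p = 0.0477), and at 24 hours replicates 3 and 4 did (0.95, SE 0.40, adjusted p = 0.135). The 72-hour call was lost on leaving out any of 8 of the 12 libraries (adjusted p 0.0547 to 0.225), and with filterByExpr (0.0528), limma-voom (0.0554) or without 72-hour replicates 2 and 3 together (0.117). Cd163, the scavenger receptor for hemoglobin on macrophages, had 2, 6 and 2 counts in the spleen, 13, 16, 8 and 7 at 24 hours and 0, 7, 4, 0 and 0 at 72 hours. It fell from 24 to 72 hours by a log2 difference of −2.92 (SE 0.76, adjusted p = 0.0318) and did not pass against the control (2.47 at 24 hours, SE 0.87, adjusted p = 0.0746), where DESeq2 (0.0272), limma-voom (0.0348) and a fit of only the 2 groups (0.0336) did call it. The call was lost without 24-hour replicate 1 (adjusted p = 0.0864) or 2 (0.0931) or without 72-hour replicate 1 (0.0653) or 3 (0.0621). The summed macrophage markers had overlapping ranges at the 2 times, as given above.

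Heme synthesis and iron-sulfur assembly gave no calls. Of the 9 heme synthesis genes 7 were tested and 0 were called by edgeR in each comparison, with 1 at an unadjusted p under 0.05 each time; DESeq2 also called 0, and limma-voom called 1 at 72 hours against the control and 0 elsewhere. Urod, a cytosolic enzyme late in the heme pathway, was the gene with that p against the control. Its log2 fold changes were −2.09 at 24 hours (SE 1.0, adjusted p = 0.19) and −2.0 at 72 hours (SE 0.88, adjusted p = 0.233). Urod counts were few: 9, 10 and 10 in the spleen, 2, 2, 0 and 1 at 24 hours and 1, 2, 8, 0 and 0 at 72 hours. It was named after its values were seen. Of 14 genes of mitochondrial iron and iron-sulfur assembly 8 were tested and 0 called by edgeR in each comparison, with 0, 0 and 1 at an unadjusted p under 0.05, and DESeq2 and limma-voom called 0. For iron chaperones and storage 0 of 2 tested genes were called, and for iron export and its control 0 of 1, by edgeR, DESeq2 and limma-voom alike, with 0 at an unadjusted p under 0.05. Of 10 erythroid markers, 9 were in the table, Hba-a1, Hba-a2, Hbb-bs and Slc4a1 had 0 counts in every library, and the sum did not exceed 3.63 CPM in any. The 10 hepatocyte markers, with Apoc3 and Ttr at 0, summed to 2.32 to 6.11 CPM in the spleen, 14.9 to 19.8 at 24 hours and 3.24 to 30.3 at 72 hours. The 7 B cell markers summed to 50.6 to 64.0, 29.7 to 63.0 and 30.7 to 53.5 CPM. The part of hepatocyte RNA in the differences between liver and spleen was not tested.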

How the data were processed

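RNA of sorted mouse neutrophils was sequenced as paired reads from a strand-preserving mRNA library kit. Per the submitters' processing notes the authors aligned reads to GRCm38 with STAR 2.7.9a, and per the study's methods they counted reads per gene with HTSeq-count. The deposited table holds these raw counts for 48709 genes in 12 libraries. Its 5 summary rows were left out, and the row for reads on no gene held 96.8% to 97.3% of the reads counted.

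The 9 genes were matched through GENCODE M21 (GRCm38), and 48349 rows matched it. Scaling was by TMM, and edgeR 4.0.16 in R 4.3.3 gave quasi-likelihood tests on all 12 libraries together, for the 12488 genes with more than 1 CPM in at least 3 libraries. Genes were called at a Benjamini-Hochberg adjusted p below 0.05 over all tested genes with a log2 fold change of 0.5 or more in either direction. The script recovered known changes in simulated data. Count ratios, with 0.5 added to each count, were compared by exact permutation tests. Correlations used log2 CPM with a prior count of 2.

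Depth was 1267089 to 3017403 gene counts, so 1 normalized CPM was 1.37 to 3.23 counts. The members and the lists of pathway genes and cell markers were chosen with earlier results of these data known. Genes named were all members, the genes overlapping them on the other strand, pathway genes called in any comparison and the 3 tested genes most correlated with each member. Alternatives changed the scaling, test (DESeq2 1.42.0, limma 3.58.1), filter, fold limit, libraries, replicate block, and the reading of Ftl1 with Gm10252. Leaving out the Gm10252 row was added after seeing the data. Replicate numbers did not pair the libraries (correlations of deviations −0.116 to 0.13 in 10 pairs, 1 above 0.1).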

Additional observations from a re-analysis of the deposited data

Results flagged for a closer look

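Ireb2 in 72-hour replicate 1 was at 9.22 CPM, below the other 4 libraries of its group, which lay between 15.6 and 17.96 CPM. Its gap to the nearest library exceeded the 95% limit of Dixon's test. This test was made in 32 groups of 4 or 5 values, and chance alone marks about 1 in 20.

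Fbxl5 and Cd163 differed between the liver times when 72-hour libraries were set directly against 24-hour libraries in edgeR. The log2 difference was −0.92 for Fbxl5 (adjusted p = 0.0228), where every 24-hour library was above every 72-hour library. Whether the Fbxl5 row reads its mRNA or the opposite strand is not known. For Cd163 the log2 difference was −2.92 (adjusted p = 0.0318), which rests on 0 to 16 counts a library.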

How the results depend on the processing

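Of the 7 called member comparisons, 3 (Fth1 at both times and Gm10252 at 24 hours) kept their call in every alternative run and 0 reversed; 6 of the 20 not called reversed in some setting. Members called against the control at 72 hours, 4 in the report, numbered 2 with only the 2 groups compared, 1 without 72-hour replicates 2 and 3 together, and 1 to 4 with each library left out; at 24 hours that range was 2 to 4. Between the liver times 1 member was called with no filter (Slc40a1, adjusted p = 0.0078), 1 with the replicate block and 0 to 1 with a library left out. The replicate block, for numbers that did not pair the libraries, gave 4, 4 and 1 members called and 1302, 874 and 599 genes in all, and it called Ftl1 (adjusted p = 0.0116) and Cd163 (0.0482) at 24 hours and Slc40a1 between the times (0.0126), and not Lrp1 at 72 hours (0.0884). Pathway genes called between the times, 2 in the report, numbered 5 with no filter, 1 with filterByExpr, 1 without 72-hour replicates 2 and 3 and 0 to 2 with a library left out; against the control that range was 2 to 3 at each time. Signs turned, with no call, for Tfrc at 24 hours (log2 0.52 with limma-voom, 0.028 with the block, −1.46 to 3.16 with a library left out), Slc40a1 at 24 hours (−0.74 to 0.031 with a library left out), Ireb2 at 72 hours (0.047 with the block, −0.14 to 0.063 with a library left out), and Fbxl5 (−0.016 to 0.38) and Cd163 (−1.39 to 0.19) at 72 hours with a library left out. Between the times they turned for Fth1 (−0.05) and Ftl1 (−0.27) without 72-hour replicates 2 and 3, and for Ftl1 (−0.016 to 0.42) and Hmox1 (−0.27 to 0.11, and 0.11 with the block) with a library left out. With a library left out, the ratio differences ranged from 0.56 to 0.76, 0.03 to 0.20 and −0.66 to −0.44 for Gm10252 to Ftl1, and from −0.70 to −0.14, 0.34 to 0.53 and 0.55 to 1.11 for Fth1 to both. Upper-quartile scaling moved the 24-hour calls over all genes from 668 higher and 550 lower to 799 and 465. Between the times DESeq2 called 986 genes where edgeR called 561. Without 72-hour replicates 2 and 3, 287 (72 hours) and 197 (between the times) genes were called in place of 666 and 561. The causes were not tested. Counts of 0 to 68 a library limit Tfrc, Hmox1, Ireb2 and Ncoa4.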
